A study of Mus musculus with 8 samples.

Results

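The genes described here were the Slit ligands *Slit1*, *Slit2* and *Slit3*, the Robo receptors *Robo1*, *Robo2* and *Robo4*, and the Slit-Robo GTPase activating proteins *Srgap1* and *Srgap2*. They were taken by gene symbol from a table of expected counts and made up 8 of its 53465 genes. The table came from single-read sequencing of polyadenylated RNA from heart ventricles of mouse embryos at E9.5. It held 4 wild-type (WT) samples and 4 samples labelled Nrg-1flox;Tie2-Cre, called mutant here. In the mutant, floxed *Nrg1*, which encodes the endocardial growth factor neuregulin-1, was deleted by Cre recombinase under the *Tie2* promoter, which drives expression in endothelial cells, endocardium included, and is also known to be active in blood lineages. The labels gave no Cre status or litter for the WT samples and did not say whether embryos were pooled or whether samples came from separate embryos. The p-values therefore measured the spread between these samples, which may be technical. The comparison asked whether a fall of *Slit2* in the mutant ventricles was shared by its paralogs, its receptors and their adaptors.

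Slit proteins are secreted ligands that bind the extracellular part of Robo transmembrane receptors, with heparan sulfate as co-receptor. They are best known for repelling axons at the midline of the nervous system. Robo receptors lack enzyme activity of their own and act through cytoplasmic partners, among them the srGAP proteins and the Nck, Pak, Abl and Ena/VASP proteins. In the heart, Slit and Robo genes are known from mouse mutants to take part in the formation of the septa, the valves and the pericardium.

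Each sample gave from 11852506 to 14360427 counts in WT and from 12430483 to 14223984 in the mutant. *Nrg1*, the targeted gene, was read first as a check of the labels. Its counts were 156, 131, 121 and 173 in WT and 61, 59, 71 and 72 in the mutant, with no overlap (log2 fold change -1.07, SE 0.14, adjusted p = 0.00268 by the quasi-likelihood test of edgeR, Benjamini-Hochberg method). Of 14451 genes that passed a filter on low counts, 8.62% differed between genotypes at an adjusted p under 0.05, 3.5% lower and 5.11% higher in the mutant. These 506 lower and 739 higher genes ran from 174 to 1155 and from 335 to 1368 with 1 sample left out, fewest without WT replicate 1 and most without mutant replicate 1. Cardiomyocyte markers were abundant in every sample, at 33727 to 37492 CPM (normalised counts, scaled to a common library total) summed over 10 genes. Blood markers moved with genotype. All 10 erythroid genes were higher in the mutant, and their summed level was 6689 to 8089 CPM in WT and 19822 to 68682 CPM in the mutant, highest in mutant replicate 1.

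Of the 8 genes, 7 passed the filter, and *Slit1* did not. *Slit2* and *Robo1* fell in the mutant, *Slit2* to 30.2% and *Robo1* to 72.5% of the WT mean. None of the 7 rose by edgeR's test, by DESeq2 or by limma-voom. At an unadjusted p under 0.05 by edgeR, 0 were higher, where 13.1% of all genes were. By the same measure 3 were lower, *Slit2*, *Robo1* and *Srgap1*, where 11.9% of all genes were. Of the 7, *Slit2* included, 5 had a log2 fold change below 0, where 50.3% of all genes did. *Slit3*, *Robo2*, *Robo4*, *Srgap1* and *Srgap2* did not pass the test, and each of them had at least 1 mutant sample within the WT range. The genes were chosen around the fall of *Slit2*, so it does not count toward a shared fall. Of the other 6 tested, 1 fell, *Robo1*, where 3.5% of all genes tested were called lower. The median log2 fold change of the 7 genes, *Slit2* included, was -0.08, and that of all genes tested was -0.0014.

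**Figure D1:**
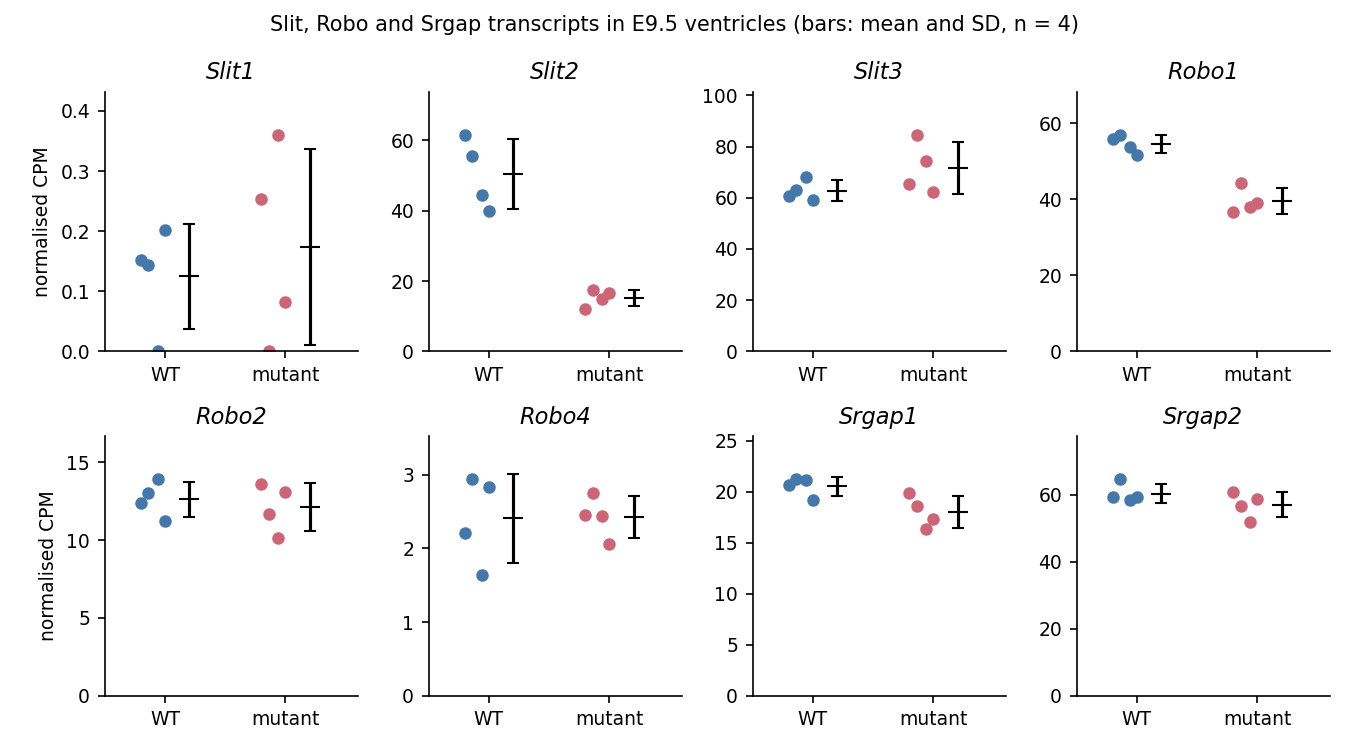
Normalised CPM (y axis, linear from 0, own scale for each gene) of the 8 genes in WT (blue) and mutant (red) ventricles, with replicates 1 to 4 from left to right and bars for the mean and SD (n = 4). The 4 mutant samples of *Slit2* lie between 12.1 and 17.4 CPM against 39.9 to 61.4 in WT, those of *Robo1* between 36.5 and 44.4 against 51.7 to 56.8, and the other genes overlap.

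*Slit2* (ENSMUSG00000031558) lies on the plus strand at chr5:47983138-48307733 in the mouse build GRCm38, and its longest coding transcript spans 7785 bases in 39 exons, with a coding sequence of 4626 bases. *Robo1* (ENSMUSG00000022883), the gene for a receptor of Slit ligands, lies on the plus strand at chr16:72308306-73046095, with 29 exons and 7563 bases. Because these are the genes that fell, the bases just before their transcript starts are shown, 5′ to 3′ on the plus strand, from RefSeq promoter windows on GRCm38.p6. The *Slit2* stretch is chr5:47982905-47983137 and the *Robo1* stretch is chr16:72662899-72663148, which precedes a shorter *Robo1* transcript and lies within the longest annotated gene span. Capitals mark matches to 2 of 7 motifs searched on both strands, the GC box GGGCGG and the TATA box TATAAA.
Slit2: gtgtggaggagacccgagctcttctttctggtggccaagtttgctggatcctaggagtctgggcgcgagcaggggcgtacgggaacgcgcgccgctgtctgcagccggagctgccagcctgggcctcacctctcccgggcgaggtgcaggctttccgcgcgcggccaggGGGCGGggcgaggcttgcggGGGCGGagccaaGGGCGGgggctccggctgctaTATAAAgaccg
Robo1: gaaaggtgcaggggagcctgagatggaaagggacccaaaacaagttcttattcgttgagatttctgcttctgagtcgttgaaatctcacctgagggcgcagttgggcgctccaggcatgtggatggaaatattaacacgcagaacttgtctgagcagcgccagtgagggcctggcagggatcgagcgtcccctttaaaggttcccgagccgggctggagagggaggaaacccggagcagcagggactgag
The *Slit2* stretch held 3 GC boxes and 1 TATA box, and the *Robo1* stretch held none of the motifs. Over 32851 RefSeq windows of 300 bases, 35.7% held the GC box and 13.6% the TATA box. The other motifs were CCAAT (held by 37.4% of windows), the GATA site AGATAA (11.2%), the ETS site CCGGAA (14.9%), the T-box site GGTGTG (19%) and the E-box CACGTG (7.2%). The full *Slit2* window was 68.0% G and C with 30 CpG dinucleotides, and the *Robo1* window 57.0% with 15, where the median window had 52.7% and 7. These are matches of letters, and binding was not measured.

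*Slit2* gave 804, 776, 540 and 590 counts in the 4 WT samples and 143, 240, 207 and 200 in the mutant. These were 61.4, 55.6, 44.4 and 39.9 CPM in WT (50.3 ± 9.92, SD, n = 4) and 12.1, 17.4, 14.9 and 16.5 CPM in the mutant (15.2 ± 2.31, SD, n = 4). The highest mutant sample was below the lowest WT sample, as for 9.45% of the genes tested, and WT replicates 1 and 2 were above WT replicates 3 and 4. The difference was 3.30-fold, a log2 fold change of -1.72 (SE 0.15, 95% interval -2.07 to -1.38, adjusted p = 0.00119 by the quasi-likelihood test of edgeR, Benjamini-Hochberg method). The direction and the call held in each of 8 fits that left out 1 sample, from -1.82 to -1.61. In bulk RNA, fewer cells that express a gene and less RNA per cell cannot be told apart.

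Among the 14451 genes tested, *Slit2* had the 11th lowest log2 fold change and the 7th smallest p. It was also well expressed. Of the 4372 genes with a WT level of at least that of *Slit2*, only 3, *Slit2* included, had a log2 fold change as low as its own. The median size of the log2 fold change over all genes was 0.15.

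**Figure D2:**
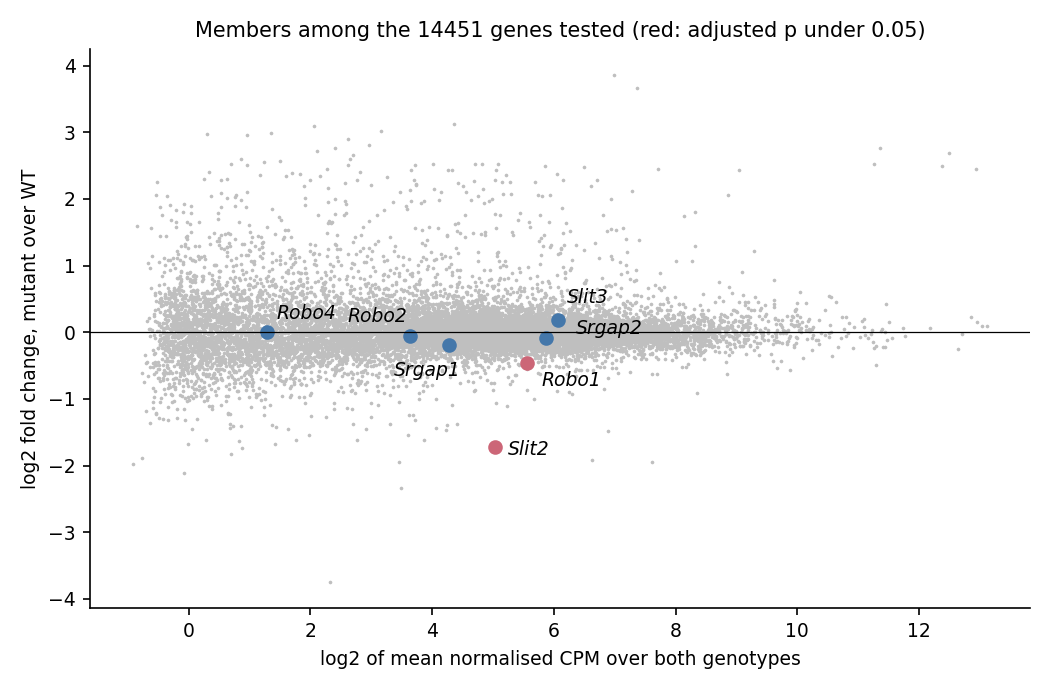
Log2 fold change, mutant over WT (y axis), against the log2 of the mean normalised CPM (x axis) for the 14451 genes tested (grey), with the 7 tested Slit, Robo and Srgap genes in red where the adjusted p was under 0.05 and in blue elsewhere. *Slit2*, at -1.72, lies below nearly all genes of its expression level, *Robo1*, at -0.46, lies at the lower edge of the cloud, and the others lie within it.

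*Slit3* (ENSMUSG00000056427, chr11:35121224-35708507, plus strand, 36 exons) encodes the third Slit ligand. Its levels were 60.7, 63.0, 68.3 and 59.1 CPM in WT (62.8 ± 4.00, SD, n = 4) and 65.2, 84.4, 74.4 and 62.2 CPM in the mutant (71.6 ± 10.02, SD, n = 4). Mutant replicates 2 and 3 were above all WT samples, while mutant replicates 1 and 4 lay within the WT range. The log2 fold change was 0.19 (SE 0.10, 95% interval -0.03 to 0.41) and did not pass (adjusted p = 0.262 by the quasi-likelihood test of edgeR, Benjamini-Hochberg method). The interval leaves out any fall of more than 0.03 on the log2 scale. With 1 sample left out, the log2 fold change ran from 0.11 to 0.25 and never passed (adjusted p from 0.113 to 0.458 by edgeR). The unadjusted p by edgeR was 0.0295 without mutant replicate 1 and 0.0277 without mutant replicate 4.

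*Slit1* (ENSMUSG00000025020, chr19:41600257-41743665, minus strand, 37 exons), the paralog known mainly from the nervous system, was close to the limit of detection. It gave 2, 2, 0 and 3 counts in WT and 3, 0, 5 and 1 in the mutant. The sums of 7 and 9 counts had exact Poisson 95% intervals of 2.81 to 14.4 and 4.12 to 17.1, which overlap and cover counting error only. No fold change is given, and a difference was not detectable at this depth.

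*Robo1* had 55.9, 56.8, 53.7 and 51.7 CPM in WT (54.5 ± 2.29, SD, n = 4) and 36.5, 44.4, 38.0 and 39.1 CPM in the mutant (39.5 ± 3.41, SD, n = 4). All 4 mutant samples were below all 4 WT samples, again without overlap. The log2 fold change was -0.46 (SE 0.07, 95% interval -0.62 to -0.31, adjusted p = 0.00433 by the quasi-likelihood test of edgeR, Benjamini-Hochberg method), or 1.38-fold lower. It stayed between -0.52 and -0.43 with 1 sample left out, and the call held each time. Among the 506 genes that fell, 314 fell by less than *Robo1*, and the median was -0.39. On the CPM scale, *Robo1* fell by 15.01 and *Slit2* fell by 35.1.

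*Robo2* (ENSMUSG00000052516, chr16:73891839-74411825, minus strand, 29 exons), a further Slit receptor on the same chromosome as *Robo1*, did not pass. It had 12.4, 13.0, 13.9 and 11.2 CPM in WT (12.6 ± 1.13, SD, n = 4) and 13.6, 11.7, 10.1 and 13.1 CPM in the mutant (12.1 ± 1.55, SD, n = 4). The genotypes overlapped over most of their range. The log2 fold change was -0.06 (SE 0.12, 95% interval -0.33 to 0.21, adjusted p = 0.799 from the same edgeR test). This interval does not reach the estimate for *Robo1* but overlaps its interval (-0.62 to -0.31), and the 2 genes were not tested against each other.

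*Robo4* (ENSMUSG00000032125, chr9:37401897-37415115, plus strand, 17 exons) encodes the Robo of endothelial cells, the lineage in which the Cre is active. It was sparse, at 20 to 42 counts per sample in WT and 25 to 38 in the mutant. The levels were 2.21, 2.94, 1.64 and 2.84 CPM in WT (2.41 ± 0.602, SD, n = 4) and 2.46, 2.75, 2.45 and 2.06 CPM in the mutant (2.43 ± 0.283, SD, n = 4). The mutant samples lay within the WT range. The log2 fold change of 0.0073 had a 95% interval from -0.49 to 0.50, so changes between 0.714-fold and 1.42-fold could not be told from none (adjusted p = 0.989 from the same edgeR test). Its sign turned to -0.0094 with upper-quartile normalization.

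*Srgap1* (ENSMUSG00000020121, chr10:121780991-122047315, minus strand, 22 exons) and *Srgap2* (ENSMUSG00000026425, chr1:131285251-131527352, minus strand, 23 exons) encode srGAP proteins that bind the intracellular part of Robo. *Srgap1* had 20.7, 21.2, 21.1 and 19.2 CPM in WT (20.6 ± 0.932, SD, n = 4) and 19.8, 18.6, 16.3 and 17.3 CPM in the mutant (18.0 ± 1.53, SD, n = 4). Only mutant replicate 1 reached the WT range. The log2 fold change of -0.19 (SE 0.08, 95% interval -0.38 to -0.0014) had an unadjusted p of 0.0486 and did not pass after adjustment over all genes (adjusted p = 0.197 from the same edgeR test). *Srgap2* had 59.3, 64.6, 58.4 and 59.3 CPM in WT (60.4 ± 2.83, SD, n = 4) and 61.0, 56.8, 52.0 and 58.7 CPM in the mutant (57.1 ± 3.81, SD, n = 4). Its genotypes overlapped, at a log2 fold change of -0.08 (SE 0.07, 95% interval -0.23 to 0.06, adjusted p = 0.475 from the same edgeR test). With 1 sample left out, that of *Srgap2* ran from -0.11 to -0.04. Exons of *Srgap1* share 131 bases with *Gm48804* on the same strand, a gene that drew 37 counts over all 8 samples. The other members share exon bases with no other gene.

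**Figure D3:**
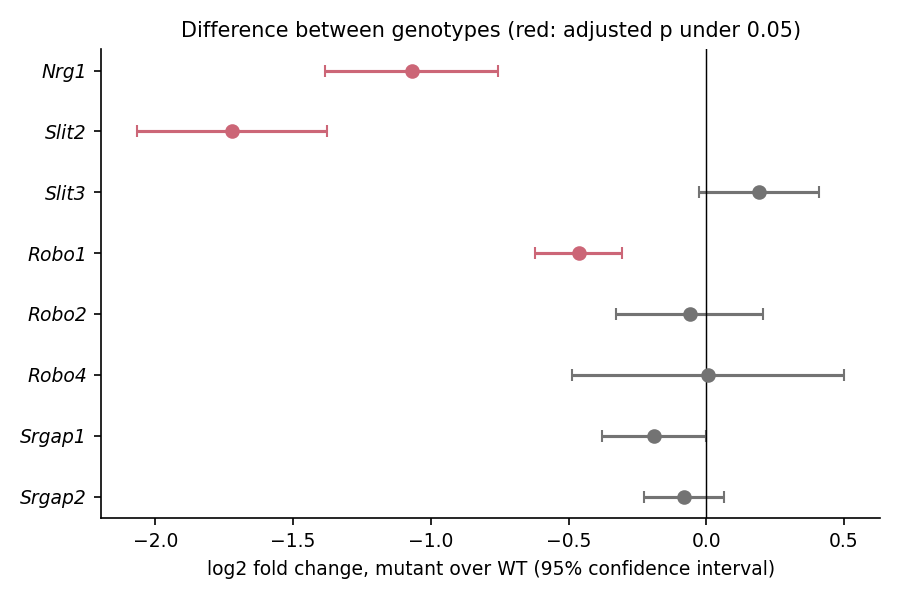
Log2 fold change, mutant over WT (x axis), with 95% confidence intervals from edgeR's quasi-likelihood fit for *Nrg1* and the 7 tested genes (y axis), in red where the adjusted p was under 0.05. The intervals of *Nrg1*, *Slit2* and *Robo1* lie below 0, that of *Srgap1* ends just below 0, and the others cross it.

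Whether the change of each other gene differed from that of *Slit2* was tested on the log2 ratio of the gene to *Slit2* within each sample. Each ratio was higher in the mutant. The rise, which is the difference between the 2 log2 fold changes, was 1.89 for *Slit3* (95% interval 1.42 to 2.35), 1.74 for *Robo4* (1.22 to 2.27) and 1.64 for *Robo2* (1.15 to 2.13). It was 1.62 for *Srgap2* (1.16 to 2.09), 1.52 for *Srgap1* (1.04 to 1.99) and 1.24 for *Robo1* (0.81 to 1.67). Adjusted p ran from 2.98e-06 for *Slit3* to 2.42e-05 for *Robo1* (limma, Benjamini-Hochberg over all genes), and each ratio gave p = 0.0286 in a two-sided exact permutation test, the smallest that 70 relabellings allow. By this test the fall of *Robo1* was smaller than that of *Slit2*, and the other 5 genes also differed from *Slit2*. Since *Slit2* itself fell so far, 99.1% of all genes passed this test, and the result sets the 6 genes apart from *Slit2* but not from other genes. It cannot say whether a gene shared part of the fall, since *Robo1*, which fell, passed as well.

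Between genes, levels were compared as CPM per kilobase of the longest coding transcript. In WT the order was *Slit3* (12.01 ± 0.764, SD, n = 4), *Srgap2* (7.53 ± 0.353), *Robo1* (7.21 ± 0.303), *Slit2* (6.46 ± 1.27), *Srgap1* (2.64 ± 0.1197), *Robo2* (1.57 ± 0.140), *Robo4* (0.621 ± 0.155) and *Slit1* (0.0247 ± 0.0173). Ranges of neighbours overlapped between *Srgap2* and *Robo1* and between *Robo1* and *Slit2*. In the mutant, *Slit2* (1.95 ± 0.296) stood below *Srgap1* (2.31 ± 0.197), and its range overlapped those of *Srgap1* and *Robo2* (1.504 ± 0.192). *Slit3* (13.7 ± 1.92), *Srgap2* (7.11 ± 0.475) and *Robo1* (5.22 ± 0.451) kept the top of the order. The order depends on the length used, since the merged exons of *Slit2* are much longer than its longest coding transcript. With merged exons *Slit2* was at 1.98 in WT and *Srgap1* at 2.25, with overlapping samples (1.57 to 2.41 and 2.10 to 2.32).

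The make-up of the ligand transcripts shifted with *Slit2*. By CPM per kilobase of the longest coding transcript, *Slit2* was 40.4, 37.1, 30.4 and 31.1% of the Slit ligand sum in WT (34.7% ± 4.83, SD, n = 4) and 11.1, 12.1, 11.8 and 15.1% in the mutant (12.5% ± 1.77). *Slit3* made up nearly all of the rest, at 65.1% in WT and 87.3% in the mutant. The ratio of *Slit2* to *Slit3* was 0.540 ± 0.116 in WT and 0.144 ± 0.0234 in the mutant, without overlap. With merged exon lengths, a comparison added after seeing the data, the *Slit2* share was 15.99% ± 2.87 in WT and 4.85% ± 0.751 in the mutant and the ratio to *Slit3* was 0.192 ± 0.0412 and 0.0511 ± 0.00831, so the sizes depend on the length while the groups stay apart. The summed ligand level was 19.5, 19.2, 18.8 and 16.5 in WT and 14.1, 18.4, 16.2 and 14.04 in the mutant. Mutant replicate 2 lay above WT replicate 4 in this sum, so the genotypes overlapped. With merged exons the sum was 12.35 ± 0.706 in WT and 12.4 ± 1.69 in the mutant, so its mean was not lower. These sums and shares follow from the values above and carry no test of their own.

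Among the receptors, *Robo1* was the main transcript in both genotypes. It made up 77.8, 76.0, 76.8 and 76.3% of the Robo sum in WT and 67.6, 73.1, 72.7 and 70.5% in the mutant. The share was lower in every mutant sample than in every WT sample. *Robo2* accounted for 16.7% in WT and 20.5% in the mutant, and *Robo4* for 6.61% and 8.52%, and the samples of both genotypes overlapped in each of these shares, also with merged exons. With merged exons *Robo1* was at 85.8% and 81.6%, *Robo2* at 8.85% and 11.2% and *Robo4* at 5.40% and 7.17%, and the *Robo1* share was again lower in every mutant sample. The summed receptor level was 9.40 ± 0.393 CPM per kilobase in WT and 7.35 ± 0.476 in the mutant, without overlap. The ratio of summed ligands to summed receptors was 1.97 ± 0.0982 in WT and 2.13 ± 0.218 in the mutant (SD, n = 4 each), with overlapping samples. This overlap depends on the length. With merged exons the ratio was 1.46, 1.43, 1.58 and 1.41 in WT and 1.85, 2.06, 2.12 and 1.73 in the mutant, higher in every mutant sample.

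**Figure D4:**
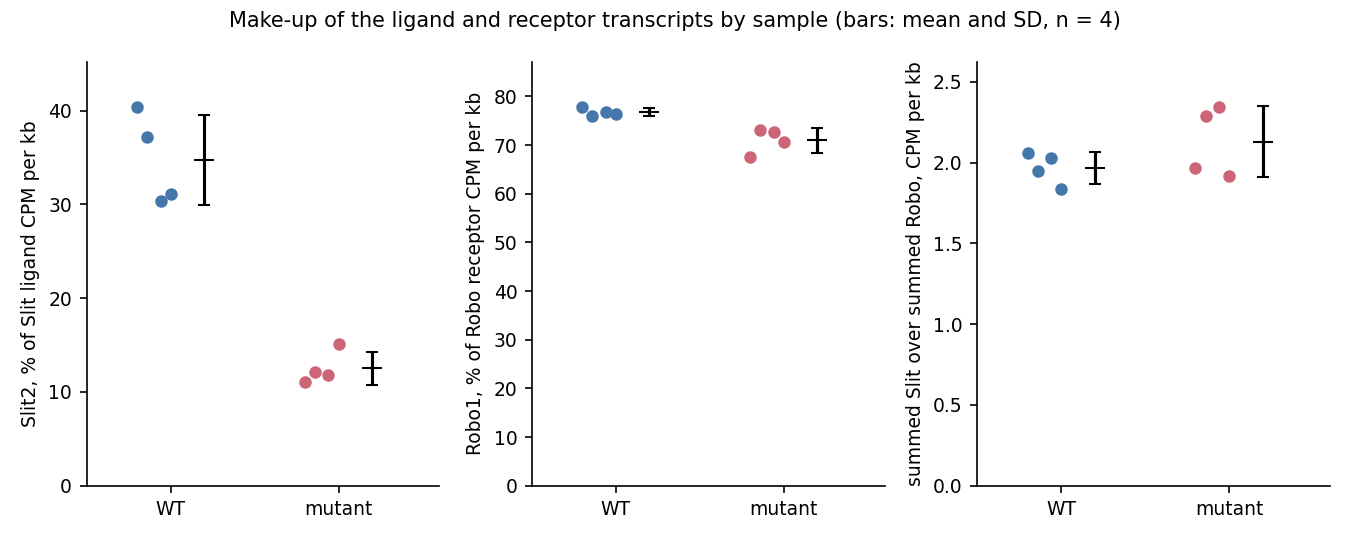
Share of *Slit2* in the summed Slit ligands (left, %), share of *Robo1* in the summed Robo receptors (middle, %) and ratio of summed Slit to summed Robo (right), all from CPM per kilobase of the longest coding transcript, with replicates 1 to 4 from left to right and bars for the mean and SD (n = 4). The *Slit2* share drops from 34.7% to 12.5%, the *Robo1* share from 76.7% to 71.0%, and the ratio overlaps between genotypes at this length, the longest coding transcript, but not with merged exons (up to 1.58 in WT, from 1.73 in the mutant).

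*Slit2* and *Robo1* were also compared from sample to sample. Over the 8 samples the Pearson correlation of their log2 CPM was 0.98, which includes the shared fall between genotypes. Taken as deviations from the genotype means, the correlation was 0.78. How many of all genes reach this with *Slit2* was not counted, and the 5 most like it by this measure were at 0.97 to 0.99. For the deviations of *Slit2* with those of *Slit3* the correlation was 0.24, and with those of *Srgap1* -0.02. The genes whose log2 CPM was most like that of *Slit2* over the 8 samples were *Zyg11b* (0.99), *Serpine2*, *Slc25a24*, *Mtus1* and *Prkar1a*. Those most like *Robo1* were *Gemin4* (0.99), *Sesn3*, *Hapln1*, *Spon1* and *Atp2c1*. By deviations from the genotype means, the genes most like *Slit2* were *Trim44* (0.99), *Rpl39-ps*, *Adamts20*, *Btbd6* and *Wnt5b*. These correlations describe the same 8 libraries, which share depth and normalization, and carry no test.

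*Slit2* and *Slit3* each hold a copy of the microRNA miR-218 in an intron, *Mir218-1* in intron 16 of *Slit2* (chr5:48223942-48224051) and *Mir218-2* in intron 14 of *Slit3* (chr11:35616816-35616925), both on the strand of the host. The mature 5p forms from RefSeq (GRCm38.p6) are shown because they are the same in both hosts, one of which fell and the other of which did not. Capitals mark the seed, bases 2 to 8.
miR-218-5p from the Slit2 copy: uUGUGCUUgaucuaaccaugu
miR-218-5p from the Slit3 copy: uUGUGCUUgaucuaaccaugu
Both hairpin genes were listed with 0 counts in every sample. Libraries of polyadenylated RNA do not measure mature microRNAs, so the level of miR-218 is unknown here.

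The letters that pair with this seed, AAGCACA, were looked for in the annotated 3′ UTR of each gene's longest coding transcript. They are shown for the receptor genes and for *Slit2*, with capitals for the match and coordinates in GRCm38, because *Robo1* and *Robo2* both hold them and only *Robo1* fell. The *Robo1* match is at chr16:73045336-73045357, the *Robo2* matches at chr16:73895356-73895377 and chr16:73893030-73893051 and the *Slit2* match at chr5:48304531-48304552.
Robo1 site: ttttggttttaaAAGCACAatc
Robo2 site nearer the stop codon: ttatttggtgatAAGCACAaat
Robo2 site farther from it: cacggcagacccAAGCACAgct
Slit2 site: caatactagcagAAGCACAtct
*Srgap2* held 1 match, and *Slit1*, *Slit3*, *Robo4* and *Srgap1* held none. Of 12755 tested genes with a 3′ UTR, 14.1% held a match, at a median UTR of 1017 bases, and the UTRs with a match were 1270 (*Slit2*), 1733 (*Robo1*), 3520 (*Robo2*) and 4106 (*Srgap2*) bases long. *Srgap1*, with the longest UTR of the 8 genes at 4407 bases, had none. A match of letters does not show that a site is used.

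The other genes of Slit-Robo signalling were read as a list of 34, of which 32 were tested. In this list 1 gene fell and 0 rose by edgeR's quasi-likelihood test, and 7 were lower and 1 higher at an unadjusted p under 0.05, where 11.9% of all genes were lower and 13.1% higher. The list's 1 of 32 lower calls stands beside the background of 3.5%, and its median log2 fold change was -0.03. The gene that fell was *Pak3*, which encodes a p21-activated kinase downstream of Rac and Cdc42. It went from 7.60 ± 1.14 CPM in WT to 5.03 ± 0.434 in the mutant (SD, n = 4 each), a log2 fold change of -0.59 (SE 0.15, adjusted p = 0.0363 by the quasi-likelihood test of edgeR, Benjamini-Hochberg method). That call was lost in 5 of the 8 fits that left out 1 sample, those without mutant replicates 3 and 4 and without WT replicates 1, 2 and 3, with adjusted p up to 0.116. It was also lost under the replicate block (adjusted p = 0.105) and with no filter beyond 1 count (adjusted p = 0.052 by edgeR), where *Ntn1* was the gene called instead.

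By role, none of 11 tested co-receptors and other Robo partners, such as syndecans, glypican and Unc5 receptors, passed, with a median of -0.01. *Ntn1*, chosen here after its values were seen, came nearest in this group (-0.51, SE 0.14, adjusted p = 0.0510 from the same edgeR test). It encodes netrin-1, a guidance ligand, and was at 123 ± 24.4 CPM in WT and 86.6 ± 9.63 in the mutant. Among the remaining paralogs, *Robo3* was not tested, at 9 counts over the WT samples and 8 over the mutant, and *Srgap3* did not pass (0.14, SE 0.27, adjusted p = 0.785 from the same edgeR test). Of the 19 cytoplasmic adaptors and effectors 14 had a log2 fold change below 0 (50.3% of all genes tested), with a median of -0.09, 1 was lower at an adjusted p under 0.05 and 6 at an unadjusted p (11.9% of all genes), and their summed level was 2628 to 2700 CPM in WT and 2468 to 2547 CPM in the mutant. Without mutant replicate 1 the whole list of 34 had 6 lower and 2 higher calls, where 7.89% of all genes were lower and 9.35% higher in that fit, the latter 2 being *Abl1* and *Myo9b*, named after their values were seen.

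Markers of the cell types in the ventricle were read beside these results. No marker of any list was at 0 in all samples. Over all genes tested, 11.9% were lower and 13.1% higher at an unadjusted p under 0.05 by edgeR, and 3.5% and 5.11% at an adjusted p under 0.05. The 12 endocardial and endothelial markers summed to 1158 to 1249 CPM in WT and 1050 to 1128 CPM in the mutant, without overlap, with 1 of 12 lower by edgeR's test and 5 of 12 lower at an unadjusted p under 0.05. Of the 8 trabecular markers 4 were lower (5 at an unadjusted p), with a median log2 fold change of -0.47. Their summed level overlapped (1214 to 1562 CPM in WT, 1307 to 1548 in the mutant), but most of it was *Nppa*, which encodes atrial natriuretic peptide, at 965 ± 117 CPM in WT and 1088 ± 131 in the mutant. Without *Nppa*, a sum added after seeing the data, the other 7 came to 361 to 446 CPM in WT and 273 to 336 CPM in the mutant, without overlap. In the outflow and second heart field list 4 of 7 tested were lower, also at an unadjusted p, at 246 to 277 CPM in WT and 170 to 195 CPM in the mutant. The epicardial list had 2 of 7 higher (4 at an unadjusted p), at 135 to 208 CPM in WT and 211 to 350 CPM in the mutant. Of 10 cardiomyocyte markers 0 passed (2 lower at an unadjusted p under 0.05), and their sums overlapped. None of the 2 tested compact myocardium markers passed (1 higher at an unadjusted p under 0.05, 163 to 174 CPM in WT and 179 to 189 CPM in the mutant), nor did the 2 of 8 neural and neural crest markers that were tested (0 at an unadjusted p under 0.05, 15.05 to 21.7 and 15.3 to 20.4 CPM). The part of these differences in the fall of *Slit2* and *Robo1* was not tested. Without hemoglobin and mitochondrial genes in the table, *Slit2* was at -1.71 and *Robo1* at -0.45, and without mutant replicate 1, the sample with the most erythroid RNA, they were at -1.63 and -0.43, all past the threshold. Neither fit takes away the blood difference. The first keeps the other erythroid genes, and the mutant samples in the second had at least 19822 CPM of erythroid markers, against at most 8089 in WT.

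**Figure D5:**
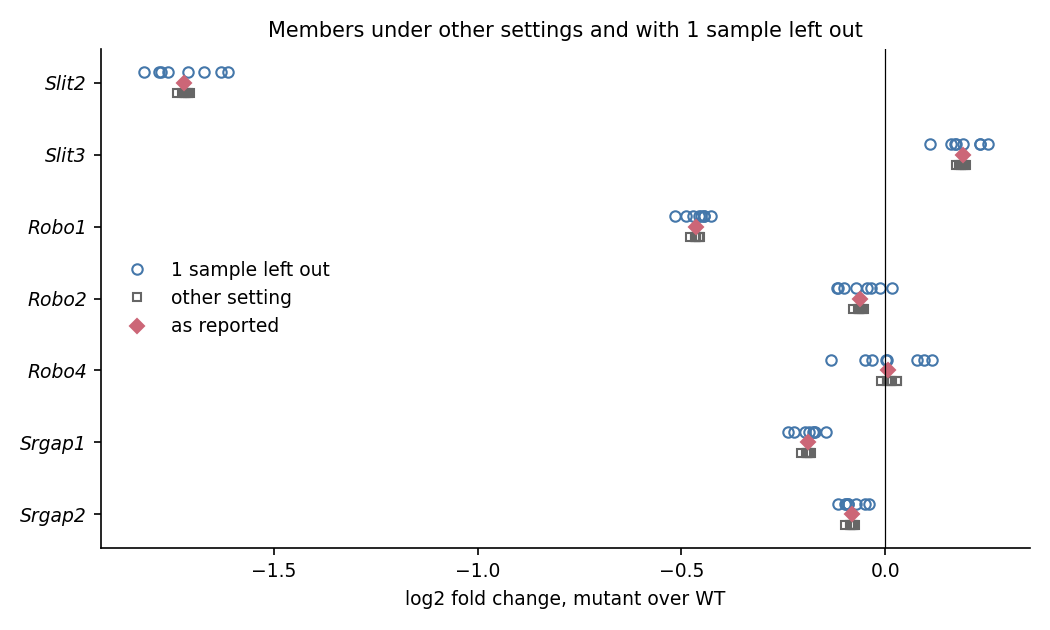
Log2 fold change, mutant over WT (x axis), of the 7 tested genes (y axis) as reported (red diamond), with 1 sample left out (blue circles, 8 fits) and under other normalizations, filters and tests (grey squares, 8 settings). *Slit2* stays between -1.82 and -1.61 and *Robo1* between -0.52 and -0.43, apart from 0, while *Robo2* and *Robo4* have points on both sides of 0.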

How the data were processed

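RNA was extracted with a PicoPure kit, and poly(A)-selected libraries were made with a NEBNext Ultra kit, which does not mark strand, per the labels. The authors deposited expected counts per gene, estimated with RSEM 1.3.1 after adapter removal with cutadapt on GRCm38, per the submitters' processing notes. The aligner and the use of strand in counting were not given in the sources used here. These values are not scaled for library size or length, and RSEM divides reads that match several genes. All 8 sample columns were mapped to a label.

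Expected counts were rounded to whole numbers and tested with edgeR 4.0.16 in R 4.3.3 (filterByExpr, TMM, quasi-likelihood test, 8 samples, genotype as the factor, no covariate) with Benjamini-Hochberg adjustment over 14451 genes and a threshold of 0.05. CPM values are TMM-normalised. Ratios to *Slit2* were tested with limma 3.58.1 on log2 CPM with a prior count of 2, and by exact permutation, two-sided. Lengths, exons and UTRs came from GENCODE vM21, in which 99.7% of the table's transcripts were found, and promoter and microRNA sequences from RefSeq. Promoter windows were found for 7 of the 8 genes.

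The 8 genes, the pathway list and the marker lists were chosen with earlier results of these data known. Outside the 8 genes and *Nrg1*, named genes were pathway genes past the threshold, the paralogs *Robo3* and *Srgap3*, up to 3 of the most abundant genes of a marker list, and the 5 genes most correlated with *Slit2* and with *Robo1*. *Ntn1* and the other pathway genes named without passing were chosen after their values were seen. Alternatives were upper-quartile and DESeq2 size factors, 2 other filters, a blocking term for the replicate number, a table without hemoglobin and mitochondrial genes, limma-voom, DESeq2 1.42.0, merged exon length (for sums and shares added after seeing the data), a prior count of 0.5, and each sample left out in turn.

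Within a genotype, chi-square over degrees of freedom was at least 3.77 for every pair of samples, so none was counted as a duplicate. On simulated counts of 14451 genes with 200 changed, the edgeR test recovered 78% of changes of 1 and 96% of changes of 2 on the log2 scale, with 11 false calls. Total counts of 11852506 to 14360427 per sample limit the precision for *Slit1* and *Robo4*.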

Additional observations from a re-analysis of the deposited data

Results flagged for a closer look

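In 36 groups of 4 samples, made of the Slit, Robo and Srgap levels, their sums and their shares, 2 had a sample far from the other 3, where chance marks about 1 group in 20. *Srgap2* in WT replicate 2 was at 64.6 CPM against 58.4 to 59.3 in the other WT samples, a gap of 0.852 of the range. The share of *Robo4* in the summed Robo receptors was 7.26% in mutant replicate 4 against 8.84 to 9.11% in the other mutant samples, a gap of 0.854 of the range. Neither gene passed the test between genotypes.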

How the results depend on the processing

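*Slit2* and *Robo1* were the 2 members called in each of 8 other settings and 8 fits without 1 sample, with adjusted p up to 0.0135 for *Slit2* and 0.0226 for *Robo1*. The ratios to *Slit2* kept their call in all 66 repeats, which says little, since 99.1% of all genes passed that test. The signs of *Robo2* (-0.1186 to 0.0167 with 1 sample left out, above 0 without mutant replicate 3) and *Robo4* (-0.13 to 0.11, and -0.0094 with upper-quartile normalization) were not stable, and neither passed in any fit. Calls over all genes ran from 509 (without WT replicate 1) to 2523 (without mutant replicate 1), 335 to 1368 higher and 174 to 1155 lower.

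Same-numbered samples of the 2 genotypes did not deviate together over all genes (correlations from -0.09 to 0.02, and 0 of 8 samples closest to their own number). A shared litter or batch that affects fewer genes was not tested. With a block for the replicate number, 616 genes passed, 398 higher and 218 lower. *Slit2* (-1.71) and *Robo1* (-0.47) kept their calls under the block.

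The number of pathway genes that fell was 0 with the block, 1 with no filter beyond 1 count (*Ntn1*, not *Pak3*), 2 with limma-voom (*Pak3* and *Rac1*), 3 with upper-quartile normalization and 3 with at least 10 counts in every sample (both *Pak3*, *Rac1* and *Ntn1*), and 5 with DESeq2 (these 3, *Pak2* and *Cap2*). Of all genes, 218 of 14451 fell with the block, 427 of 28458 with no filter beyond 1 count and 522 of 14451 with limma-voom. With upper-quartile normalization 592 of 14451 fell, with at least 10 counts in every sample 544 of 13174, and with DESeq2 702 of 53465. The list had 32 genes tested, or 34 with no filter and with DESeq2. With 1 sample left out, 0 to 6 pathway genes fell and 0 to 2 rose, where 174 to 1155 of all genes fell and 335 to 1368 rose. The pathway genes were named after their values were seen, and the cause was not tested.

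With merged exon lengths the WT levels, in CPM per kilobase, were 1.98 for *Slit2*, 10.4 for *Slit3*, 0.744 for *Robo2*, 0.454 for *Robo4*, 2.25 for *Srgap1* and 4.81 for *Srgap2*, lower because the merged exons are longer. Depth limits *Slit1* and *Robo4*, whose counts were at most 5 and 42 per sample.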
